A study of Mus musculus with 4 samples.

Results

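The NF-kappaB family of transcription factor subunits and inhibitors was examined by probe set in the cytoplasmic RNA of mouse Neuro2A cells after depletion of the small RNA 4.5SH. The 10 genes named were the inhibitors Nfkbia, Nfkbib and Nfkbie, the atypical inhibitors Nfkbiz and Bcl3, and the Rel subunits Nfkb1, Nfkb2, Rela, Relb and Rel. Members were the probe sets whose array annotation gave 1 gene symbol, that symbol being one of these names. They numbered 18 of 45037 non-control probe sets and covered 9 of the 10 genes, among 18193 genes with a probe set of their own. No probe set carried the symbol Nfkb1 alone, and that gene was not analysed here. The family was chosen from earlier results of the same arrays, in which Nfkbie had the lowest knockdown value relative to control. The differences of the members between the groups are therefore given as a description, and no p-value is printed for them. Members are still labelled by the adjusted p threshold applied to all probe sets. These labels and the intervals come from the contrast that selected the family, so they only describe it.

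The 4 arrays comprised 2 biological replicates of cells depleted of endogenous 4.5SH, called the knockdown below, and 2 of control cells. 4.5SH is a small noncoding RNA of rodents related in sequence to B1 repeats, and the study sought genes with an antisense B1 element that it acts on. Neuro2A is an established neuroblastoma line, and all groups were dishes of this single line with no transgene or deletion named. The protocol in the labels applies 30 nM antisense oligonucleotide by lipofection, while the sources used here do not name the control oligonucleotide. Effects of 4.5SH loss and of the oligonucleotides themselves thus cannot be told apart. Nothing in the labels says that the replicates came from separate transfections, so p-values measure only the spread between these samples. Only cytoplasmic poly(A)+ RNA was hybridized, so a change in export, stability or transcription of an RNA cannot be told apart from its value here. In such bulk RNA, fewer cells expressing a gene and less RNA per cell cannot be told apart either.

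NF-kappaB is a dimer of Rel proteins that is held in the cytoplasm by inhibitors of the IkappaB family. Signals from receptors for cytokines or microbial products activate IkappaB kinase, which marks the inhibitors for ubiquitination and destruction, and the freed dimer enters the nucleus. Genes for several inhibitors and subunits are themselves among the targets of NF-kappaB, so the pathway is known for feedback at the RNA level.

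Trimmed mean signals were 128 and 132 on the knockdown arrays and 149 and 144 on the control arrays, and medians ranged from 17.1 to 18.3 over all 4. Of the 19 neuroblastoma markers 18 had a probe set, and 11 of them had a mean signal of at least 100, among them the sympathetic factors Hand2 and Phox2a, while Th averaged 16.2. Values were analysed as log2(signal + 16), and the 22525 probe sets with a mean signal of at least 16.9 were tested with limma at a Benjamini-Hochberg adjusted p of 0.05. Such a probe set is called lower or higher in the knockdown below, and the pseudocount of 16 makes the fold change of a dim probe set smaller. Of all tested probe sets 35.6% were called, 25.8% as lower and 9.76% as higher. Over all tested probe sets the median log2 fold change was -0.11, so the typical probe set lay slightly below 0. The balance of calls depended on how arrays were scaled. Of the called probe sets 72.5% were lower on the deposited scale, 49.6% with quantile scaling, 51.4% with arrays centred on tested probe sets and 88.5% with spike-in scaling.

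RNA of 6 of the 9 measured family members was lower in the knockdown at every tested probe set, and that of no member was higher. The members lower were all 3 classical inhibitors (Nfkbie, Nfkbia and Nfkbib) and the subunits Relb, Nfkb2 and Rela. The subunit Rel and the atypical inhibitors Nfkbiz and Bcl3 had no probe set that was called. At 17 of the 18 member probe sets the signal passed the filter, and 12 of these 17, or 70.6%, were lower, beside 25.8% over all tested probe sets. None was higher, beside 9.76%. With only the brightest 25% of probe sets tested, 12 of 13 member probe sets were lower, beside 42.6% of all those tested. Nfkbia alone had 5 of the 12. The median log2 fold change was -0.49 over the 17 member probe sets and -0.11 over all 22525. The arrays of the groups did not overlap, in either direction, at 14 of the 17, beside 66.9% of all tested probe sets. These 14 include the probe set 1457404_at of Nfkbiz, which lay higher in the knockdown. In the lower direction alone the arrays did not overlap at 44.3% of all tested probe sets. Since the family was selected on this contrast, nothing is read from these counts beyond the values themselves.

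**Figure D1:**
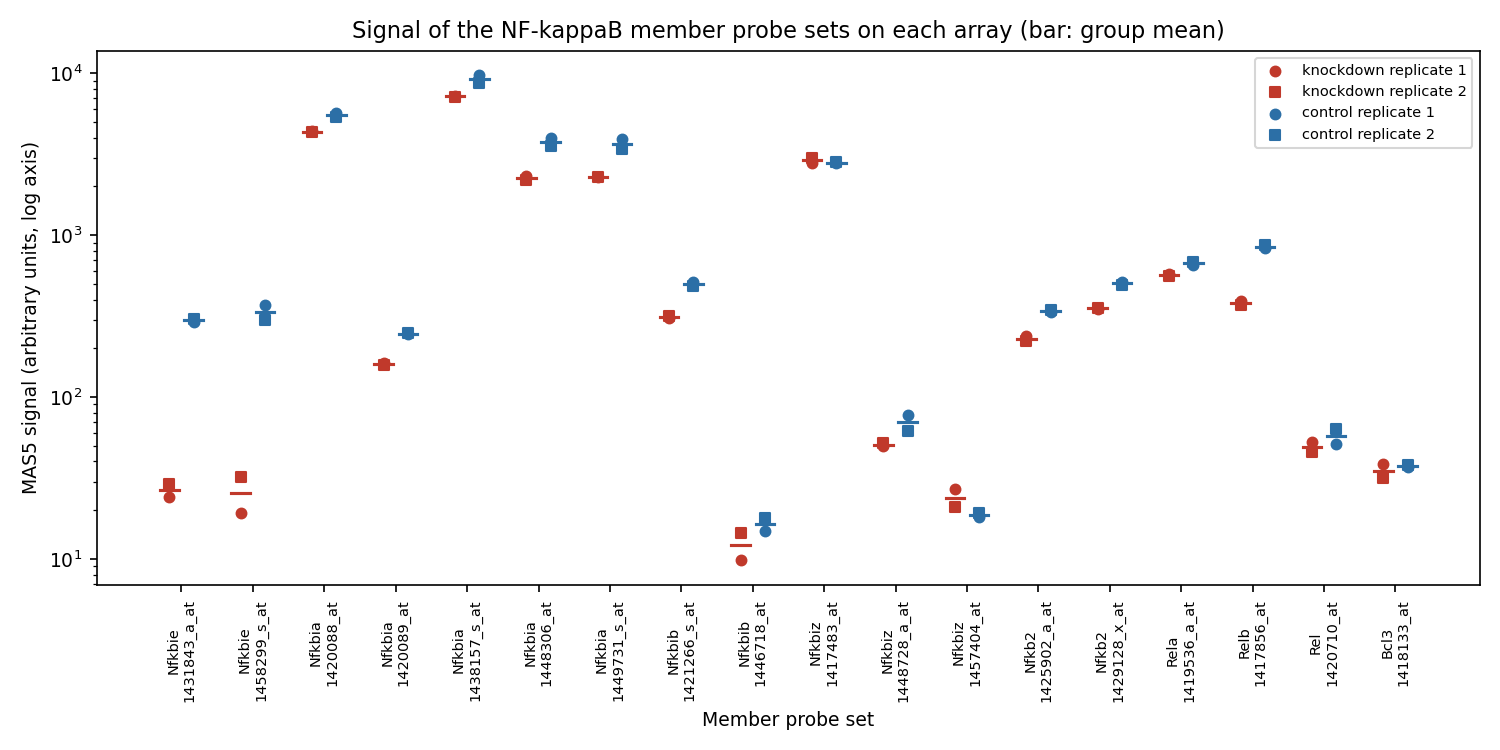
MAS5 signal (log axis) of the 18 member probe sets on each of the 4 arrays, with knockdown replicates in red left of control replicates in blue and a bar at each group mean. The 2 probe sets of Nfkbie read 19.3 to 32 in the knockdown, against 288.7 to 372.7 in the control, the widest gap in the plot, while the groups overlap at the bright Nfkbiz probe set and for Rel and Bcl3.

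Nfkbie encodes IkappaB epsilon, an inhibitor that binds dimers of Rela and Rel, and the gene lies at chr17:45555700-45563169 (GRCm38.p6). Its probe set 1458299_s_at read 19.3 and 32 in the knockdown, against 372.7 and 299.6 in the control. Its other probe set, 1431843_a_at, read 24.2 and 28.9 in the knockdown, against 288.7 and 305.4 in the control. Both knockdown arrays were thus far below both control arrays, and the probe sets gave nearly the same picture. Means at the first were 25.6 ± 8.98 in the knockdown against 336 ± 51.7 in the control (SD over 2 arrays each), and at the second 26.6 ± 3.32 in the knockdown against 297 ± 11.8 in the control. The log2 fold changes were -3.09 ± 0.17 and -2.88 ± 0.14 (SE of the limma fit), and these were the lowest values of all 22525 tested probe sets. Probe sets called lower with a log2 fold change of -1 or less made up 1.77% of those tested. The knockdown signals lay close to the medians of those arrays, 17.1 and 18.2. How much of the remaining Nfkbie signal is background was not tested. Over 15 alternative settings the values ranged from -3.69 to -2.16 and from -3.44 to -2.00, with pseudocounts of 1 and 64 at the ends.

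The annotated promoter of Nfkbie is shown because the gene has the lowest values of the table. RefSeq's window runs from 250 bases before to 50 bases after the start site, at chr17:45555450-45555749 on the plus strand. It holds 1 match to the NF-kappaB consensus, in capitals below, which begins 106 bases before the start site.
Nfkbie: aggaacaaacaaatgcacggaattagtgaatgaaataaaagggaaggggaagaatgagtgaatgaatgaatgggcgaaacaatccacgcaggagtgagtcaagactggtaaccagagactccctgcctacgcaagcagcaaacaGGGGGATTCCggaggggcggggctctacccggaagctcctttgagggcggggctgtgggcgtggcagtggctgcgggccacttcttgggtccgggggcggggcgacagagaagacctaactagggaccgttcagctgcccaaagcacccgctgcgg

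Nfkbia encodes IkappaB alpha, the inhibitor best known for its rapid loss and resynthesis after a stimulus (chr12:55489409-55492647). All 5 of its probe sets were lower in the knockdown, with no overlap between the groups' arrays. The probe set 1448306_at read 2323.3 and 2200.6 in the knockdown, against 3982.4 and 3578.5 in the control, a log2 fold change of -0.74 ± 0.06. The probe set 1449731_s_at read 2275.4 and 2282.4 in the knockdown, against 3902.4 and 3417.2 in the control (-0.68 ± 0.06). The dimmest, 1420089_at, read 162 and 157.3 in the knockdown, against 244.7 and 247.3 in the control (-0.58 ± 0.11). Differences were smaller at the 2 other probe sets. The probe set 1420088_at read 4381.6 and 4330.7 in the knockdown, against 5673.8 and 5355.1 in the control (-0.34 ± 0.05). The brightest, 1438157_s_at, read 7245.1 and 7127 in the knockdown, against 9753.8 and 8707 in the control (-0.36 ± 0.05). The 95% intervals of these 2 differences reached down to -0.44 and -0.47, while those of the largest 2 ended at -0.60 and -0.54. The probe sets of this gene thus differed in size though not in direction. Without the intensity trend in the fit the 2 smaller differences kept their values and were no longer called, and they were at -0.21 and -0.23 with arrays centred on tested probe sets.

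Nfkbib encodes IkappaB beta, a slower-responding inhibitor (chr7:28758251-28766644). Its tested probe set 1421266_s_at read 309.1 and 314.7 in the knockdown, against 513 and 483.5 in the control, a log2 fold change of -0.65 ± 0.09. A further probe set, 1446718_at, was below the filter with 9.8 and 14.4 in the knockdown, against 14.9 and 18 in the control. It pointed the same way without overlap, at a level where signal and background are hard to separate, and it was not tested. The 3 classical inhibitors together had 8 tested probe sets, and 8 were lower, beside 25.8% of all tested probe sets. Of these 8, 5 were of Nfkbia and 2 of Nfkbie.

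The atypical inhibitors act in the nucleus, where they can raise as well as lower transcription by NF-kappaB. Nfkbiz encodes IkappaB zeta (chr16:55811375-55838954). Its bright probe set 1417483_at read 2795.8 and 3008.4 in the knockdown, against 2778 and 2841 in the control, with overlapping arrays. The log2 fold change was 0.05 ± 0.06 with a 95% interval of -0.07 to 0.17, and this was the narrowest interval among members not called. The value was 0.17 with quantile scaling and 0.18 with arrays centred on tested probe sets, called higher in both cases, whereas spike-in scaling gave -0.10, not called. Neither of the dimmer probe sets of Nfkbiz was called on the deposited scale, and their values had opposite signs. The probe set 1448728_a_at read 49.5 and 52.2 in the knockdown against 77.6 and 61.7 in the control (-0.35, interval -0.72 to 0.01; called lower at -0.49 with spike-in scaling), and 1457404_at read 27 and 20.8 in the knockdown against 18.2 and 19.3 in the control (0.20, interval -0.31 to 0.70). Bcl3, which binds homodimers of the small subunits (chr7:19808462-19822824), read 38.6 and 31.7 in the knockdown, against 36.8 and 38 in the control (-0.07 ± 0.20, interval -0.49 to 0.36). The groups overlapped for Bcl3, and a moderate change in either direction was not detectable at this signal.

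Among the Rel subunits the widest gap was that of Relb, the partner of p52 in the noncanonical pathway (chr7:19606217-19629438). Its single probe set 1417856_at read 394.6 and 367.8 in the knockdown, against 830.8 and 867.8 in the control. The signal was 2.23-fold lower, with a log2 fold change of -1.12 ± 0.08, and 1.03% of tested probe sets had a lower value. It was called under all 15 alternatives, between -1.27 and -0.95. Nfkb2 encodes p100, the precursor of p52 (chr19:46300994-46312400). The probe set 1425902_a_at read 237.9 and 221.6 in the knockdown, against 334.9 and 343.9 in the control (-0.53 ± 0.10). The other, 1429128_x_at, whose name marks probes that may also match other sequences, read 349.6 and 356.8 in the knockdown, against 513.9 and 494.2 in the control (-0.49 ± 0.09). Both probe sets of Nfkb2 were thus lower by a similar amount, at -0.35 and -0.31 with quantile scaling.

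Rela encodes p65, the main activating subunit of the canonical pathway (chr19:5637442-5648134). Its probe set 1419536_a_at read 576.5 and 555.7 in the knockdown, against 658.4 and 683 in the control, a log2 fold change of -0.24 ± 0.08. The groups did not overlap, but the call rested on the settings. Rela was at -0.04 with quantile scaling and at -0.11 with arrays centred on tested probe sets, both not called. It was not called without any single array either, at values of -0.26 to -0.21. Rel encodes c-Rel, a subunit best known from lymphocytes (chr11:23736847-23770969). It read 52.8 and 45.6 in the knockdown, against 51.1 and 63.1 in the control (-0.16 ± 0.18, interval -0.54 to 0.22), with overlapping groups. Of the 5 tested probe sets for Rel subunits 4 were lower, all but that of Rel, beside 25.8% of all tested probe sets. Nfkb2 had 2 of these 4.

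**Figure D2:**
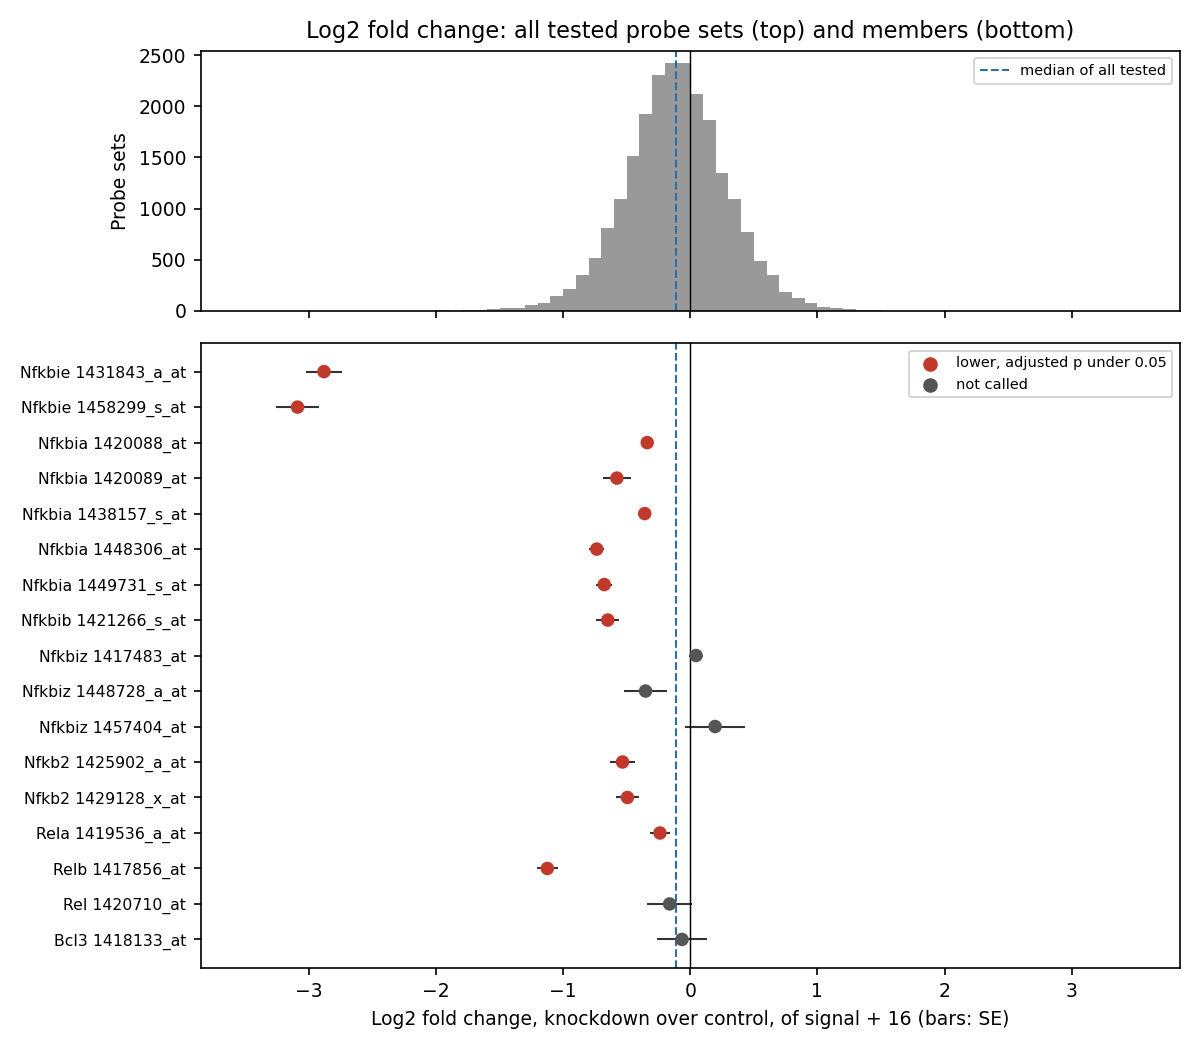
Distribution of the log2 fold change (knockdown over control, of signal + 16) over all 22525 tested probe sets above, and the 17 tested member probe sets with their standard errors below. Members called lower are red, those not called are grey, and the dashed line is the median of all tested probe sets at -0.11; the Nfkbie probe sets at -3.09 and -2.88 lie outside the bulk of the distribution.

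Each member probe set was also followed through 4 other scalings of the arrays. With quantile scaling 11 member probe sets were lower and 1 was higher, beside 16.7% and 17% of all tested probe sets. With spike-in scaling 13 were lower, beside 35.6%. Leaving out any 1 array left 11 lower, beside 19.1% to 23.4%. The probe sets whose call differed between the scalings were those of Rela and Nfkbiz. The log2 fold changes of Nfkbie stayed between -3.23 and -2.75 over the 4 other scalings.

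**Figure D3:**
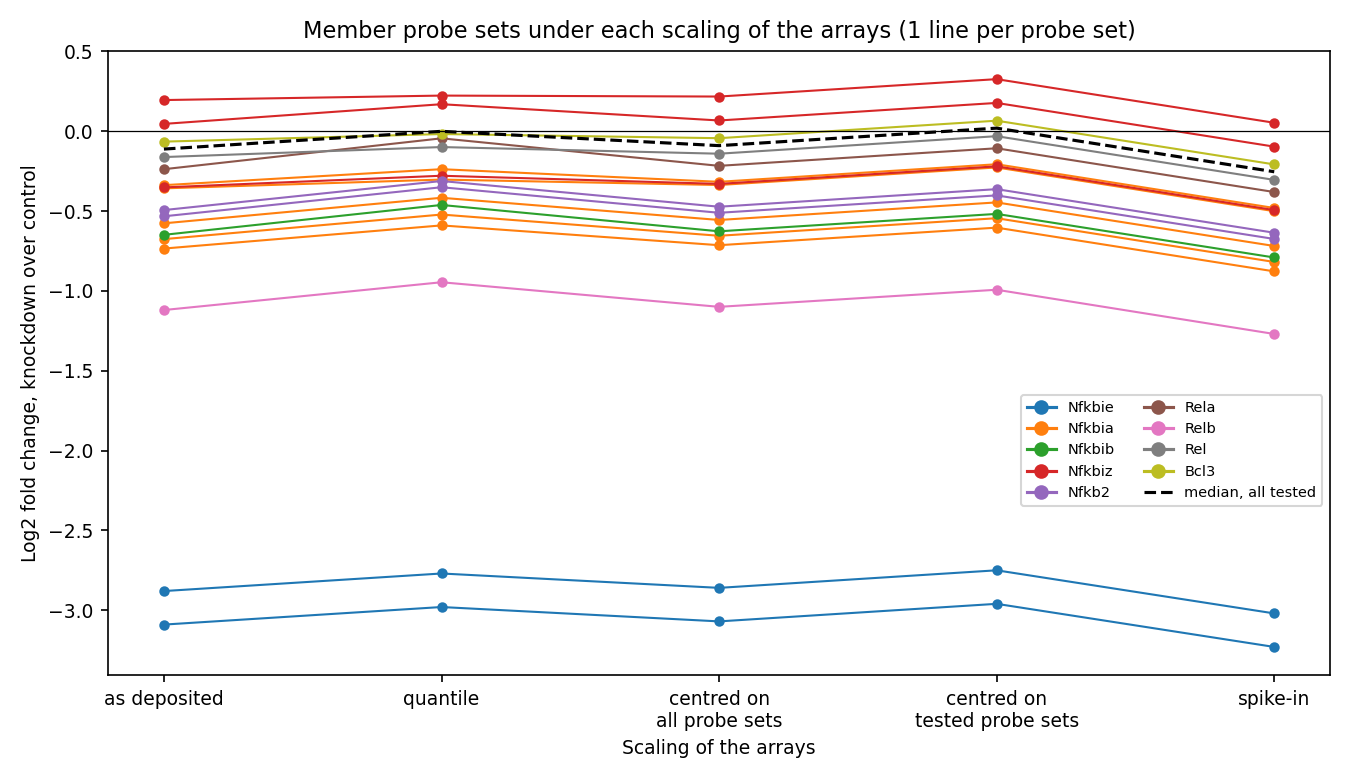
Log2 fold change (knockdown over control) of each member probe set, 1 line each, coloured by gene, under 5 scalings of the arrays, with the median of all tested probe sets dashed. The Nfkbie probe sets stay at or below -2.75, Relb stays between -1.27 and -0.95, and Rela and the bright Nfkbiz probe set lie near 0 or cross it.

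Sites for NF-kappaB in the promoters of the members are shown because NF-kappaB is known to control part of its own family. RefSeq promoter windows (GRCm38.p6) were at hand for 7 of the 10 members, in 9 windows of 300 bases. The NF-kappaB consensus was searched on both strands, and it matched in 5 of these 7 genes. Over all 27025 genes with a window 5.14% had a match. In the lines below, 30 bases are printed in the direction of the gene, with the 10 bases of the match in capitals, and where matches overlap 1 of them is shown.
Nfkbia, chr12:55492657-55492686: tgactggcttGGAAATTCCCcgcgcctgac
Nfkb2, chr19:46304688-46304717: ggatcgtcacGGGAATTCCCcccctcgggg
Nfkb2, chr19:46304716-46304745: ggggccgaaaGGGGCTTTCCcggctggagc
Nfkb2, chr19:46305449-46305478: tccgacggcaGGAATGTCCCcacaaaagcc
Nfkb2, chr19:46305695-46305724: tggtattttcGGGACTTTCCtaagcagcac
Rel, chr11:23771042-23771071: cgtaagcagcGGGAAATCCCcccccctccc
Bcl3, chr7:19822734-19822763: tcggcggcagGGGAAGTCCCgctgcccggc
The match began 29 bases before the start site in Nfkbia, 92 before it in Rel and 2 after it in Bcl3. Start sites are those of the promoter windows, and for Bcl3, Nfkb2 and Rela they lie within the gene spans given above. Matches thus stood in promoters of members that were lower (Nfkbie, Nfkbia and Nfkb2) and of members that were not called (Rel and Bcl3). The windows of Nfkbib and Rela, both lower, held none. A match is a string of letters and does not show that a factor binds.

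**Figure D4:**
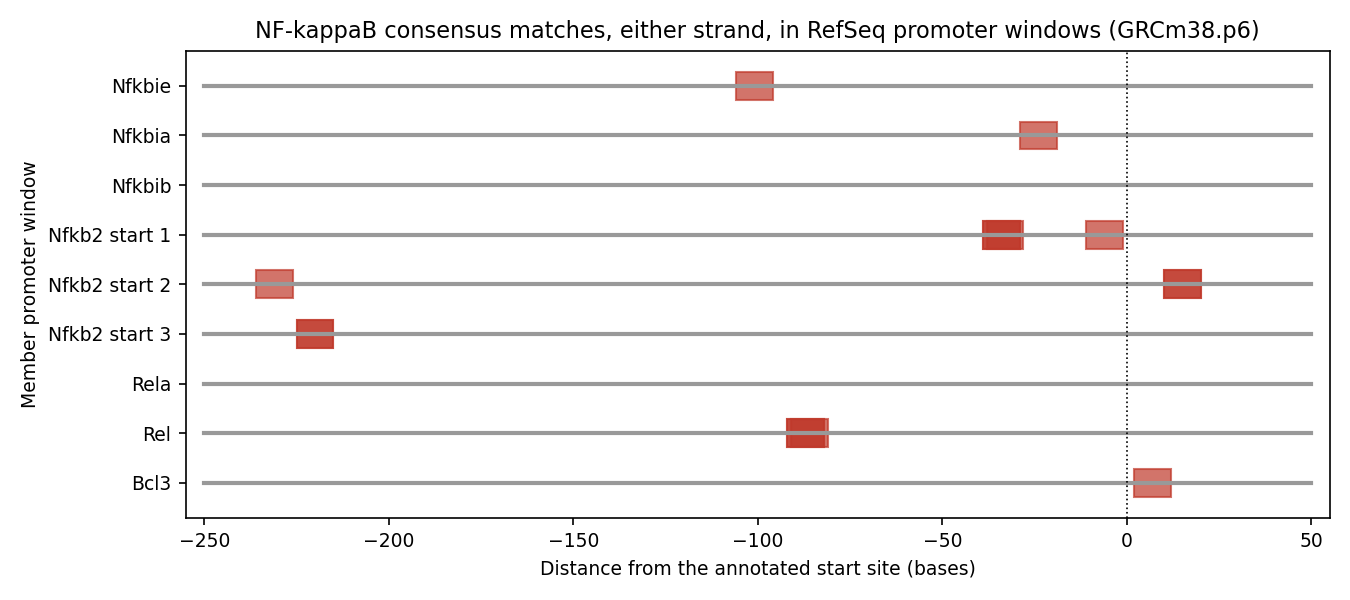
Positions of NF-kappaB consensus matches (red boxes of 10 bases, either strand; darker where matches overlap) in the 9 RefSeq promoter windows of 7 members, against the distance in bases from the annotated start site. Matches lie in the windows of Nfkbie, Nfkbia, Nfkb2, Rel and Bcl3, and those of Nfkbib and Rela hold none.

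The surrounding pathway was described with 5 gene lists grouped by role, counted by gene through the brightest tested probe set. At gene level 45.1% of 11814 tested genes were called, 35.2% as lower and 9.84% as higher, with a median log2 fold change of -0.17. Known target genes of NF-kappaB were called lower in 22 of 36 tested cases, or 61.1%, and higher in 2, and 12 were not called. Their median was -0.33. With quantile scaling 15 were lower and 4 higher, where 22.7% and 17.7% of all genes were. With spike-in scaling 25 were lower and 2 higher, where 46.1% and 4.48% of all genes were. The count of 2 higher genes was 1 without knockdown replicate 2 or without control replicate 1.

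Cxcl1, a chemokine that draws neutrophils, fell most among the target genes. It read 877.1 and 906.7 in the knockdown, against 3015.6 and 2965.9 in the control, a log2 fold change of -1.73 ± 0.06 (adjusted p = 9.8e-12, limma). All 3 of its tested probe sets were lower. Ccl2, a monocyte chemokine, read 3045.2 and 3104.7 in the knockdown, against 6024.1 and 5476.5 in the control (-0.90 ± 0.05, adjusted p = 1.91e-09, limma). Cxcl2, a close relative of Cxcl1, was dimmer, with 40.2 and 40.1 in the knockdown, against 91.6 and 80.5 in the control (-0.86 ± 0.17, and -0.53 with a pseudocount of 64). The transcription factor Irf1 read 653.8 and 648.7 in the knockdown, against 1346.2 and 1217 in the control. Junb, a subunit of AP-1, read 426.2 and 433.9 in the knockdown, against 868.2 and 798.7 in the control. The rule that named these 5 targets took called genes without overlap by largest change, so their lack of overlap is no separate result. Each stayed lower under all 15 or 16 alternatives that tested it.

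The target list was not uniform. The cytokine Il6 read 1010.2 and 1045.1 in the knockdown, against 1015.3 and 1042.4 in the control, with a log2 fold change of -0.00 ± 0.07 (adjusted p = 0.987, limma). Tnfaip3, the deubiquitinase A20 that restrains the pathway, read 298.5 and 298.2 in the knockdown, against 294.3 and 288 in the control (0.03 ± 0.10). The target genes called higher were Irf7, an interferon regulatory factor (0.56 ± 0.18), and Xiap, an inhibitor of apoptosis (0.55 ± 0.09). Of the 3 tested probe sets of Xiap 2 were higher and 1 lower. Il6, Tnfaip3, Irf7 and Xiap lie outside the rule for named genes and were chosen after their values were seen. The consensus was found in the promoter windows of 14 of 34 target genes, or 41.2%. Of the 13 tested genes with a match 9 were lower, 0 higher and 4 not called, and of the 15 without one 7 were lower, 2 higher and 6 not called. Over all tested genes 35.2% were lower and 9.84% higher, and the part of a match in these counts was not tested. Those with a match and not called were Il6, Tnfaip3, Cxcl10 and Bcl2l1. Of the named lower targets, Junb had no match in its window and Ccl2 had no window. Matches of 4 target genes are printed beside those of the members, that of Il6 as 1 without a called change.
Cxcl1, chr5:90891164-90891193: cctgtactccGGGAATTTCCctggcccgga
Cxcl2, chr5:90903792-90903821: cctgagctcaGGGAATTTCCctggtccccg
Irf1, chr11:53769991-53770020: agtccgggccGGGGAATCCCgctaagtgtt
Il6, chr5:30013060-30013089: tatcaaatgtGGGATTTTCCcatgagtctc
Cxcl1 and Cxcl2 carried the same 10 letters as their match.

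Receptors and ligands that feed into the pathway were lower in 6 of 16 tested cases, or 37.5%, near the 35.2% of all tested genes. They were higher in 0, beside 9.84%. Their median was -0.23, beside -0.17 over all tested genes. Tnfsf13b, the B cell survival ligand BAFF, read 101.4 and 102.2 in the knockdown, against 353 and 250.1 in the control (-1.41 ± 0.14, adjusted p = 5.2e-07, limma). The second probe set of Tnfsf13b was not called, and the mean of both gave -0.85. Ltb, a subunit of lymphotoxin, was at -0.78 ± 0.12, Tnfrsf1a, the main receptor of TNF, at -0.67 ± 0.09 and the receptor Cd40 at -0.58 ± 0.09. The neurotrophin receptor Ngfr was lower at its brightest probe set (-0.41 ± 0.08), while the mean over its 3 gave -0.07 and was not called. Of the 30 genes named in this list 14 had no tested probe set.

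Adaptors and upstream signalling proteins moved both ways, with 12 of 31 lower, 5 higher and 14 not called. These were 38.7% lower and 16.1% higher, beside 35.2% and 9.84% of all tested genes. The median was -0.17, as over all tested genes. The adaptors Traf4 (-0.91 ± 0.13) and Traf5 (-0.90 ± 0.15), the ubiquitin ligase Birc3 (-0.81 ± 0.11), the scaffold Card10 (-0.71 ± 0.10) and the kinase Map3k7, which encodes TAK1 (-0.69 ± 0.10), fell. Of the 5 tested probe sets of Map3k7 3 were lower and 2 were not called. Tab2, a partner of TAK1 named after its value was seen, read 1002.3 and 1086.2 in the knockdown, against 659 and 646.4 in the control (0.66 ± 0.07). The count of higher genes was 3 with spike-in scaling, where 4.48% of all genes were higher. Of the 36 target genes tested 7 are also in this list, Birc3 among them.

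The IkappaB kinases and the machinery of IkappaB turnover were lower in 5 of 16 cases, or 31.2%, beside 35.2% of all tested genes. They were higher in 3, or 18.8%, beside 9.84%. Their median was -0.06, beside -0.17 over all tested genes. Ikbkb, the catalytic kinase subunit IKK beta, read 267.3 and 337.9 in the knockdown, against 598 and 569.1 in the control (-0.92 ± 0.10, adjusted p = 1.93e-06, limma). Only the brighter of the 2 tested probe sets of Ikbkb was called. Nedd8, the ubiquitin-like modifier of cullin ligases, read 617.1 and 583 in the knockdown, against 1072.9 and 1132.1 in the control (-0.86 ± 0.07). Map3k14, the kinase NIK of the noncanonical pathway, was at -0.50 ± 0.10, and -0.31 with quantile scaling. Azi2, an adaptor of the kinase TBK1, was higher at 0.82 ± 0.14, though its 2 probe sets averaged 0.41. The ubiquitin-conjugating enzyme Ube2d3 was higher by 4 of 7 probe sets (0.48 ± 0.05), and the mean of all 7 was at 0.20 and not called. With quantile scaling 4 genes of the list were lower and 5 higher, where 22.7% and 17.7% of all genes were.

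Among other IkappaB-like proteins and modifiers of Rel proteins, 9 of 21 were lower, 5 higher and 7 not called, with a median of -0.06. These were 42.9% lower and 23.8% higher, beside 35.2% and 9.84% of all tested genes. Nfkbid, a nuclear inhibitor akin to Nfkbiz, read 91.8 and 116.9 in the knockdown, against 240.1 and 181.9 in the control (-0.91 ± 0.14). The deacetylase Sirt1, which acts on Rela, was higher, with 346 and 386.4 in the knockdown, against 237.8 and 223.6 in the control (0.63 ± 0.10). The ubiquitin ligase Rnf25 (-0.63 ± 0.08), the zinc finger protein Zfand6 (-0.47 ± 0.08) and the SUMO ligase Pias4 (-0.47 ± 0.12) were lower. Pias4 was at -0.30 and not called without control replicate 1. The higher genes numbered 8 with quantile scaling and 2 with spike-in scaling, where 17.7% and 4.48% of all genes were higher.

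**Figure D5:**
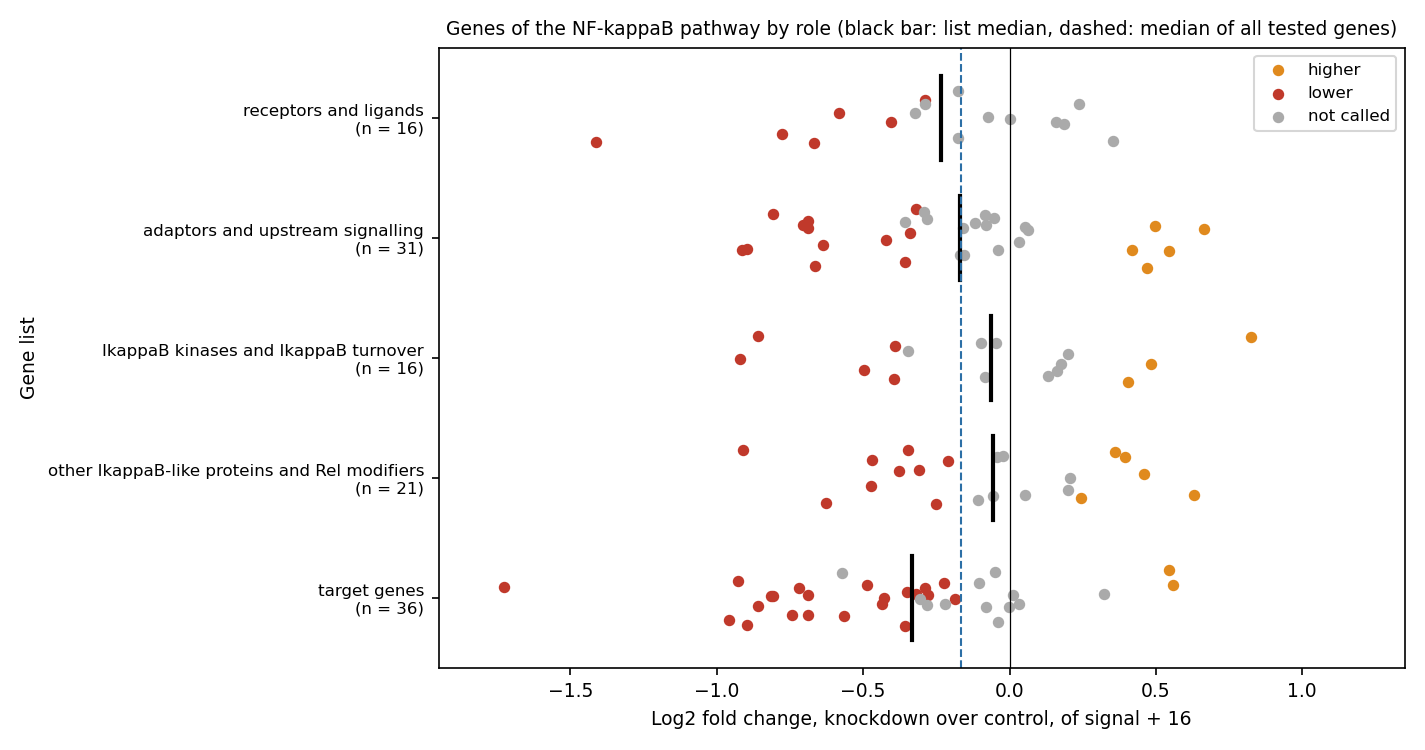
Log2 fold change (knockdown over control, of signal + 16) of the tested genes in 5 lists of the NF-kappaB pathway, 1 point per gene, orange where called higher, red where called lower and grey where not called. Black bars are list medians, from -0.33 for target genes to -0.06 for the lists of turnover and of Rel modifiers, and the dashed line is the median of all tested genes at -0.17.

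Many genes of this pathway are also active in leukocytes, whose markers were therefore read on the same arrays. Of 10 such markers 9 had a probe set, and their summed signal was 525.9 to 536.6 in the knockdown, against 867.2 to 964 in the control. Most of this was Cd68, a lysosomal protein, which read 338.1 and 341.5 in the knockdown, against 619 and 720.7 in the control. Of the 5 tested by gene 1 was called, Cd68, which was lower. Cd14 read 70.2 and 87.9 in the knockdown, against 82.8 and 77.7 in the control. Csf1r read 72.4 and 58.1 in the knockdown, against 82.6 and 68 in the control. The groups overlapped for both. The dim Lyz2 read 10.3 and 13.8 in the knockdown, against 24.5 and 29.4 in the control, without overlap. The defining leukocyte gene Ptprc was at 0.4 and 0.6 in the knockdown, against 8.1 and 0.3 in the control, near 0 on each array. Fibroblast and endothelial markers summed to 344.2 to 379 in the knockdown, against 426.9 to 427.4 in the control. The endothelial marker Pecam1 read 63.1 and 69.7 in the knockdown, against 154.2 and 118.3 in the control, and was called lower (-0.88 ± 0.15, adjusted p = 0.000161, limma). The other endothelial markers, Cdh5 and Kdr, were below the filter and pointed the other way. Cdh5 read 13.2 and 14 in the knockdown, against 5.5 and 12 in the control. Kdr read 18.8 and 17.6 in the knockdown, against 6.6 and 16.1 in the control. Dcn read 50.8 and 36.6 in the knockdown, against 33.6 and 35.7 in the control. Pdgfra read 42.4 and 33.1 in the knockdown, against 24.3 and 22.6 in the control. Both were higher in the knockdown without overlap, and neither was called. The brighter probe set of Pdgfrb read 137.6 and 160.1 in the knockdown, against 163.7 on both control arrays, and was not called. Its other tested probe set was called lower, at -0.61. The collagen gene Col3a1 was at 7.6 or less on every array. Glial markers summed to 98.8 to 117.7 in the knockdown, against 92.3 to 125.5 in the control. Of the 4 tested by gene 1 was called, the dim Sox10, which was higher. It read 28.8 and 25.4 in the knockdown, against 9.7 and 9.2 in the control (0.76 ± 0.25, adjusted p = 0.0218, limma). The part of Cd68 and Pecam1 in the lower NF-kappaB genes was not tested.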

How the data were processed

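Per the submitters' processing notes, the deposited values are MAS5 intensities, a linear signal for each probe set. Those notes, as given here, name no version, scaling target or filter. The table held 45101 probe sets, 64 of them controls. Of the others 34945 had 1 gene symbol in the array annotation, 932 had several and 9160 had none; only probe sets with 1 symbol were named.

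Signals were taken as log2(signal + 16) without scaling. The 22525 probe sets at or above the median mean signal were fitted with limma 3.58.1 in R 4.3.3 (two-sided moderated test, intensity trend in eBayes, total df 13.6, Benjamini-Hochberg adjustment at 0.05). A gene-level fit took the brightest tested probe set of each of 11814 genes. The smallest two-sided p of an exact permutation of 2 against 2 arrays is 0.333, so each p rests on variance shared across genes. The number of arrays limits the precision. Standard errors are those of the fit.

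Every member probe set was named, and from each of 5 lists (153 genes, 139 with a probe set, 113 tested) up to 5 called genes without overlap, by size of change. Members and lists were chosen with earlier results of these data known. The fit was tested on simulated data. The alternatives were pseudocounts of 1 and 64, 4 scalings, 2 other filters, no intensity trend, a replicate block, an adjusted p of 0.01, the mean of a gene's probe sets, and leaving out each array. Promoter windows come from RefSeq (GRCm38.p6). Figures were drawn with matplotlib 3.10.9. Protein sequences of the members were not analysed here.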

Additional observations from a re-analysis of the deposited data

How the results depend on the processing

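The 12 lower member probe sets numbered 9 to 13 over 15 alternatives, with 9 in the fit without the intensity trend, and 11 when any 1 array was left out. The highest count, 13, came with spike-in scaling. Of all tested probe sets 16.8% were lower without the trend, 35.6% with spike-in scaling and 19.1% to 23.4% without 1 array, beside 25.8% in the main fit. The 0 higher member probe sets became 1, the bright one of Nfkbiz, with quantile scaling and with arrays centred on tested probe sets. Under these scalings 17% and 16.8% of all tested probe sets were higher. The cause of this change was not tested. Over all tested probe sets, 2199 were higher and 5811 lower. The higher count was 3826 with quantile scaling, 3773 with tested-probe-set centring, 1042 with spike-in scaling, 1241 without the filter, 1354 without the intensity trend, 1283 at an adjusted p of 0.01, and 1200 to 1976 without 1 array, the lowest without knockdown replicate 2. The lower count was 3758 with quantile scaling and 3778 without the intensity trend. By gene 1162 were higher and 4163 lower. Higher genes numbered 2096, 2006 and 529 under quantile, tested-probe-set and spike-in scaling, 741 at an adjusted p of 0.01, and 699 to 1173 without 1 array, the lowest without knockdown replicate 2. Lower genes numbered 2677 with quantile scaling. The cause of these shifts was not tested. Same-numbered arrays did not deviate together (correlation 0.01 over 22525 probe sets, 2 pairs). With only 2 pairs this cannot show whether same-numbered samples were handled together, and the main fit used no pairing. With a replicate block 2399 probe sets were higher and 6123 lower, and 12 member probe sets were lower, beside 27.2% of all tested probe sets. The call of Rela was lost in 9 of 15 alternatives. Probe sets near a signal of 17 give no firm difference.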
